A study of Homo sapiens with 9 samples.

Results

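The 10 enzymes described here build or interconvert non-essential amino acids in human cells: ASNS, PYCR1, ALDH18A1, GPT2, GOT1, GOT2, PCK2, CTH, CBS and GLUL. They were taken by symbol from a table of 23368 genes, where each has 1 row, and all 10 passed the filter on low counts that left 13648 genes for testing. The cells were A673, an established Ewing sarcoma line whose tumour type carries EWS-FLI1, the fusion oncoprotein made from EWSR1 and FLI1. RNA was sequenced 48 h after reverse transfection with 13 nM siRNA, and the 9 libraries were 3 with siLRWD1-6, 3 with siLRWD1-5 and 3 with a scrambled siRNA. siLRWD1-6 and siLRWD1-5 are siRNAs against LRWD1, whose protein associates with origin recognition complex subunits. All groups shared a high-glucose DMEM medium with serum, L-glutamine, zeocin and blasticidin, and the labels speak of 3 independent experiments. A single cell line was used, and the siRNA sequences were not used here.

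Asparagine synthetase (ASNS) moves an amide nitrogen from glutamine to aspartate. Proline is made from glutamate through the bifunctional mitochondrial enzyme ALDH18A1 (pyrroline-5-carboxylate synthase) and a reductase step that PYCR1 catalyses in mitochondria. The aminotransferases GPT2, GOT1 and GOT2 move amino groups between glutamate and the keto acids pyruvate and oxaloacetate, PCK2 turns mitochondrial oxaloacetate into phosphoenolpyruvate, CBS and CTH carry the sulfur of homocysteine to cysteine, and GLUL makes glutamine from glutamate and ammonia. Several of these genes are known targets of ATF4, the transcription factor whose translation increases when amino acids run short or when proteins misfold in the endoplasmic reticulum. ATF4 binds, with a C/EBP partner, to a composite DNA element that contains TGATGNAA, and the ASNS promoter is a textbook example.

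The 250 bases before the annotated start were searched for TGATGNAA on both strands, where N is any base, in promoter windows from RefSeq (GRCh38.p14). Of the 10 genes, 8 had a window, and together these had 12 windows because ASNS, GLUL and CBS have alternative starts. A match occurred in 2 of the 12 windows, 1 in ASNS and 1 in GOT1. Of all 35116 windows of this length, 3.14% held one. ASNS is shown because it is the enzyme with the element known from the literature, GOT1 because it held the other match, PCK2 because it showed the largest change of the 10, and ALDH18A1 because it was higher with both LRWD1 siRNAs. Capitals mark the match, and each sequence runs 5′ to 3′ on the strand of its gene and ends at the base before the start.
ASNS: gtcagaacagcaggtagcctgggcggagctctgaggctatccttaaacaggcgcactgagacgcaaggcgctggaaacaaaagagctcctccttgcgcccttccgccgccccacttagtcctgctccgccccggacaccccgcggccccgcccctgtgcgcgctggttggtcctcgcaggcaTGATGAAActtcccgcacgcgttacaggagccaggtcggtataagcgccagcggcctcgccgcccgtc
GOT1: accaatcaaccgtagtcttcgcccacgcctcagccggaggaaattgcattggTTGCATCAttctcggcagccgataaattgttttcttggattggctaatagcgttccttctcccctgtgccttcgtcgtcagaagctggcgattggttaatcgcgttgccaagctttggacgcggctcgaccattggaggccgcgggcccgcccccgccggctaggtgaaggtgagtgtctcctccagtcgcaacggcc
PCK2: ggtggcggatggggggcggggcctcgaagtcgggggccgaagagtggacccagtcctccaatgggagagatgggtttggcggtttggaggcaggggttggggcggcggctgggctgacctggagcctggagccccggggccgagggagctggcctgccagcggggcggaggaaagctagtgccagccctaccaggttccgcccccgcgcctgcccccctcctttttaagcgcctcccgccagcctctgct
ALDH18A1: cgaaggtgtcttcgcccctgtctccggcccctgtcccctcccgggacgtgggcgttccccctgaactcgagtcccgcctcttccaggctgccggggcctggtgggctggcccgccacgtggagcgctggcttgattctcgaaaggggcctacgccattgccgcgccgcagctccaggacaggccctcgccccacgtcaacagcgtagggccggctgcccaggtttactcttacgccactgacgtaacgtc
The ASNS window (chr7:97872409-97872658, minus strand) held TGATGAAA, beginning 68 bases before the start. The GOT1 window (chr10:99430625-99430874, minus strand) held TTGCATCA, the element read on the other strand, beginning 198 bases before the start. The windows of PCK2 (chr14:24094061-24094310, plus strand) and ALDH18A1 (chr10:95656712-95656961, minus strand) held no match, which says only that these letters are not in these bases. A match is a description of sequence and was not tested for binding.

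The libraries held between 11971179 and 15674452 counted reads. LRWD1 had 6.55 to 8.55 CPM (read counts relative to library size, scaled by TMM) with siLRWD1-6 and 10.4 to 11.3 CPM with siLRWD1-5, against 49.1 to 54.6 CPM in scrambled libraries, so the targeted gene was lower in all 6 siRNA libraries. Among markers of Ewing sarcoma cells, FLI1, NKX2-2, NR0B1, STEAP1, PRKCB, BCL11B and CAV1 were detected in every library, whereas CD99 was at 0 in 8 of 9 libraries. Of 10 markers of other cell types, 4 to 6 were at 0 in each library, and all but the collagen gene COL3A1 summed to 0.804 to 1.52 CPM with siLRWD1-6, 1.48 to 1.95 CPM with siLRWD1-5 and 0.926 to 1.26 CPM in scrambled libraries. The Ewing markers moved with siLRWD1-5, where 6 of the 7 tested were lower than in scrambled libraries and 20.3% of all genes were. With siLRWD1-6, 1 of 7 was lower, against 7.78% of all genes. Without scrambled replicate 2, described next, those counts were also 6 of 7 and 1 of 7, against 25% and 13.3% of all genes. In that fit FLI1 (log2 fold change 0.30) and NR0B1 (0.34) were called higher with siLRWD1-6. That was 2 of 7, where 15.3% of all genes were higher. COL3A1 itself was high, at 1421 to 1822 CPM with siLRWD1-6, 2456 to 2799 CPM with siLRWD1-5 and 874 to 2140 CPM in scrambled libraries. The part of these markers in the results on the enzymes was not tested. Scrambled replicate 2 stood apart from the other scrambled libraries, with a chi-square per gene of 28.4 and 24.2 where all other pairs of replicates had 2.98 to 5.45. Among the 10 enzymes it was low in PCK2, by 0.99 on the log2 scale relative to the mean of replicates 1 and 3, and in CBS, by 0.53. Of all genes tested, 2.42% and 10.3% had a lower value of that difference than PCK2 and CBS. Calls on the enzymes that change without this library are given with and without it, and the named genes outside the 10 were refitted without it after the data had been seen. In bulk RNA, a change in the makeup of the culture and a change in RNA per cell cannot be told apart.

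With siLRWD1-6, 8 of the 10 enzymes were higher than in scrambled libraries and 1, GLUL, was lower, past an adjusted p of 0.05 in edgeR's quasi-likelihood test across all genes. Of all genes tested, 16.6% were called in that comparison, 8.81% higher and 7.78% lower. The 10 had a median log2 fold change of 0.67, against -0.02 for all genes. With siLRWD1-5, 3 of the 10 were higher and 0 lower, where 38.8% of all genes were called, 18.5% higher and 20.3% lower, and their median was 0.07 against -0.006. Between the siRNAs, 7 were higher and 1 was lower with siLRWD1-6 than with siLRWD1-5, where 43.4% of all genes were called, 22.4% higher and 20.9% lower, and the median was 0.41 against -0.006. Without scrambled replicate 2 the calls were 9 higher and 1 lower with siLRWD1-6, 2 higher and 2 lower with siLRWD1-5, and 7 higher and 1 lower between the siRNAs. In that fit the share of all genes called was also larger, at 28.5% with siLRWD1-6, 49% with siLRWD1-5 and 54.4% between the siRNAs. The comparisons against scrambled share their control libraries.

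**Figure D1:**
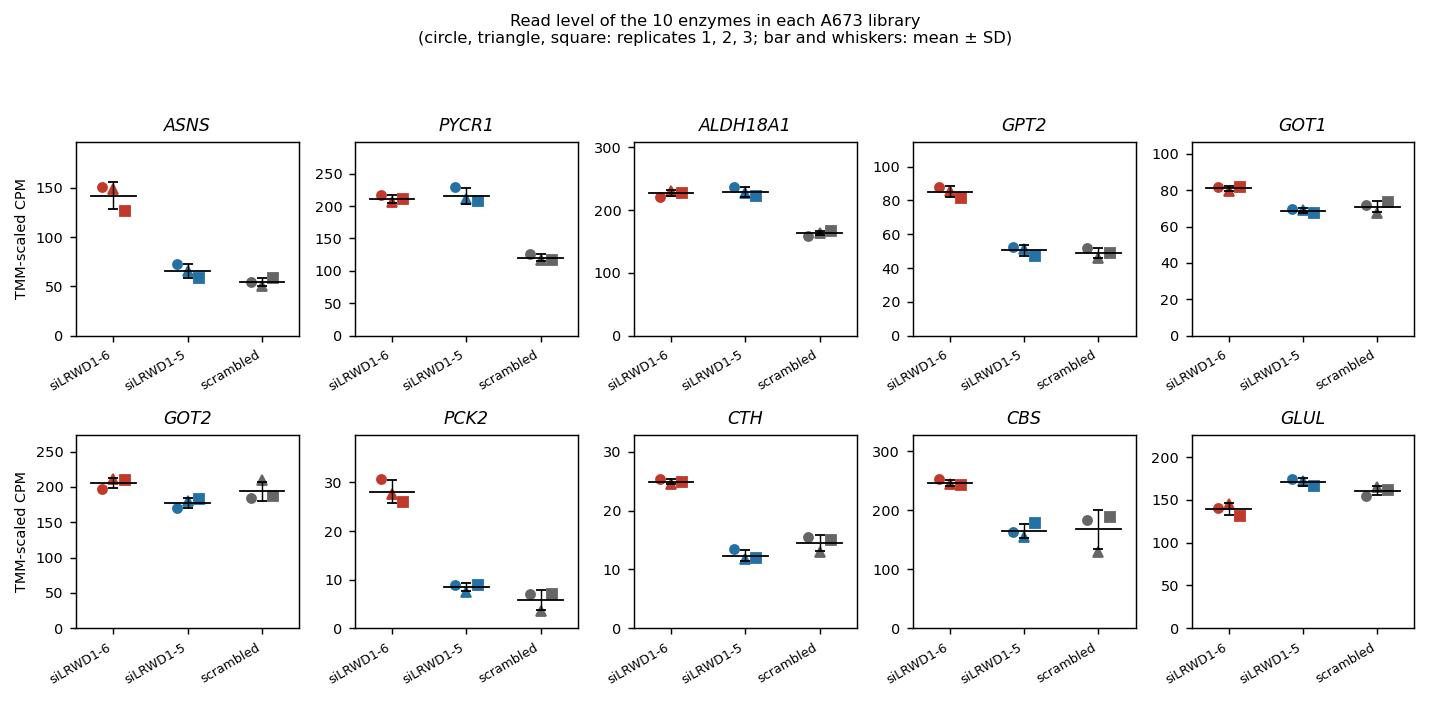
TMM-scaled CPM (vertical axis, starting at 0) of each of the 10 enzymes in siLRWD1-6 (left), siLRWD1-5 (middle) and scrambled (right) libraries, with replicates 1, 2 and 3 as circle, triangle and square and the mean ± SD as bar and whiskers. PYCR1 and ALDH18A1 are high with both LRWD1 siRNAs, ASNS, GPT2, PCK2, CTH and CBS stand apart with siLRWD1-6, and GLUL is lowest there.

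ASNS showed the second largest rise of the 10 with siLRWD1-6 and a small rise with siLRWD1-5. It had 151, 149 and 127 CPM with siLRWD1-6, 73.1, 65.6 and 58.9 CPM with siLRWD1-5 and 54.1, 50.0 and 58.4 CPM in scrambled libraries. The siLRWD1-6 libraries lay far above all others, and the lowest siLRWD1-5 library exceeded the highest scrambled library only slightly. The log2 fold change was 1.39 with siLRWD1-6 (SE 0.10, edgeR adjusted p = 6.2e-06), and only 23 of 13648 genes had a larger one. With siLRWD1-5 it was 0.28 (SE 0.10, adjusted p = 0.039). That call was lost under 8 of 18 alternatives, with adjusted p from 0.024 to 0.17 over all of them, including when scrambled replicate 1 or 2, siLRWD1-5 replicate 1 or 2, or siLRWD1-6 replicate 1 or 2 was left out (log2 fold change 0.28, 0.23, 0.20, 0.29, 0.28 and 0.28). The direct comparison gave 1.11 (SE 0.10, adjusted p = 5.1e-06), or 2.16-fold higher with siLRWD1-6 than with siLRWD1-5.

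Of the proline enzymes, PYCR1 and ALDH18A1 rose with each siRNA by nearly the same amount. PYCR1, the last enzyme of the pathway, had 217, 206 and 210.2 CPM with siLRWD1-6, 230.2, 211 and 207 CPM with siLRWD1-5 and 126, 117 and 117 CPM in scrambled libraries. Every siRNA library exceeded every scrambled library, and the siRNA groups overlapped. Its log2 fold changes were 0.81 with siLRWD1-6 (SE 0.06, adjusted p = 1.2e-05) and 0.85 with siLRWD1-5 (SE 0.06, adjusted p = 2e-06). ALDH18A1, which makes the pyrroline-5-carboxylate precursor, had 222, 231 and 228 CPM with siLRWD1-6, 237, 227 and 222 CPM with siLRWD1-5 and 159, 164 and 167 CPM in scrambled libraries. The pattern was the same in shape and smaller in size, at 0.47 with siLRWD1-6 (SE 0.05, adjusted p = 0.00017) and 0.49 with siLRWD1-5 (SE 0.05, adjusted p = 3.7e-05). Between the siRNAs neither passed the threshold. The log2 difference was -0.03 for PYCR1 (95% interval -0.17 to 0.10, adjusted p = 0.68) and -0.01 for ALDH18A1 (95% interval -0.13 to 0.10, adjusted p = 0.85), so the data allow a difference of up to those bounds.

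The ratio of 2 genes within a library shows unequal change without regard to library scaling. ASNS over PYCR1 had a mean log2 ratio of -0.57 ± 0.14 with siLRWD1-6, -1.72 ± 0.08 with siLRWD1-5 and -1.15 ± 0.13 in scrambled libraries (SD, n = 3 each). The 3 groups did not overlap, and siLRWD1-6 and siLRWD1-5 lay on opposite sides of scrambled. PYCR1 over ALDH18A1 was higher with each siRNA, at -0.10 ± 0.07 with siLRWD1-6 and -0.08 ± 0.03 with siLRWD1-5, against -0.44 ± 0.10 in scrambled libraries.

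**Figure D2:**
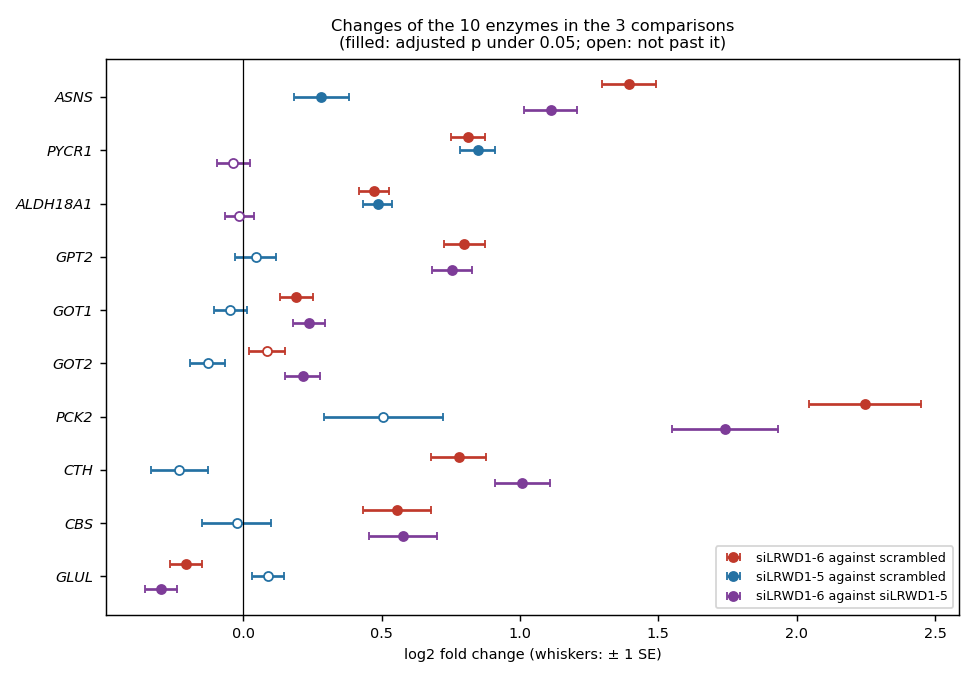
Log2 fold change (horizontal axis) of each of the 10 enzymes with siLRWD1-6 against scrambled (red), siLRWD1-5 against scrambled (blue) and siLRWD1-6 against siLRWD1-5 (purple), with whiskers of 1 SE and filled points where the adjusted p is under 0.05. Red and blue whiskers overlap for PYCR1 and ALDH18A1 and lie apart for ASNS, GPT2, PCK2, CTH and CBS.

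The 3 aminotransferases differed among themselves. GPT2, the mitochondrial alanine aminotransferase, had 88.2, 85.4 and 81.7 CPM with siLRWD1-6, 52.7, 51.6 and 46.9 CPM with siLRWD1-5 and 51.9, 46.0 and 48.8 CPM in scrambled libraries. Its siLRWD1-6 libraries did not overlap the others, and siLRWD1-5 and scrambled libraries did. The log2 fold change was 0.80 with siLRWD1-6 (SE 0.07, adjusted p = 3.4e-05) and 0.75 between the siRNAs (SE 0.07, adjusted p = 1e-05). With siLRWD1-5 against scrambled it was 0.04 (95% interval -0.12 to 0.21, adjusted p = 0.66).

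GOT1, the cytosolic aspartate aminotransferase, had 82.0, 79.6 and 81.6 CPM with siLRWD1-6, 69.9, 69.0 and 67.2 CPM with siLRWD1-5 and 72.0, 67.5 and 73.4 CPM in scrambled libraries. The 3 siLRWD1-6 libraries lay above all others by a small margin. The log2 fold change with siLRWD1-6 was 0.19 (SE 0.06, adjusted p = 0.046), a call that was lost under 12 of 18 alternatives. It was lost when any single library other than scrambled replicate 2 was left out, with log2 fold changes of 0.18 to 0.22, and adjusted p ran from 0.035 to 0.15 over all alternatives. Between the siRNAs it was 0.24 (SE 0.06, adjusted p = 0.0068), or 0.17 and just short of the threshold with no scaling beyond the library total, and with siLRWD1-5 against scrambled -0.05 (adjusted p = 0.57).

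GOT2, the mitochondrial aspartate aminotransferase, had 198, 211 and 209 CPM with siLRWD1-6, 170.1, 179.8 and 183 CPM with siLRWD1-5 and 185, 209 and 188 CPM in scrambled libraries. It was the only one of the 10 that passed the threshold in neither direction against scrambled with siLRWD1-6, at 0.09 (SE 0.06, adjusted p = 0.41). Without scrambled replicate 2, its highest scrambled library, that value was 0.15 and past the threshold (adjusted p = 0.049). With siLRWD1-5 it was -0.13 (adjusted p = 0.14), and between the siRNAs it was 0.21 higher with siLRWD1-6 (SE 0.06, adjusted p = 0.019). The last call was lost without siLRWD1-5 replicate 1 (0.18), without siLRWD1-6 replicate 2 (0.20) or with no scaling beyond the library total (0.15).

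PCK2, the mitochondrial phosphoenolpyruvate carboxykinase, had the largest change of the 10 and, in scrambled libraries, the fewest reads, with 43 to 111 counts. It had 30.7, 27.7 and 26.0 CPM with siLRWD1-6, 8.82, 7.48 and 8.93 CPM with siLRWD1-5 and 7.01, 3.48 and 7.10 CPM in scrambled libraries. The siLRWD1-6 libraries stood well clear of the rest, and the low scrambled value was replicate 2. The log2 fold change with siLRWD1-6 was 2.25 (SE 0.20, adjusted p = 4.2e-05), which 4 of 13648 genes exceeded, and 2.01 without scrambled replicate 2. Between the siRNAs it was 1.74 (SE 0.19, adjusted p = 4e-05). With siLRWD1-5 against scrambled it was 0.51 and short of the threshold (SE 0.22, adjusted p = 0.086), or 0.25 without scrambled replicate 2.

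The transsulfuration enzymes were both higher with siLRWD1-6. CBS, which joins homocysteine and serine to cystathionine, had 253, 244 and 243 CPM with siLRWD1-6, 162, 154 and 178 CPM with siLRWD1-5 and 184, 129.7 and 189.5 CPM in scrambled libraries. The siLRWD1-6 libraries were close together and above all others, whereas the scrambled libraries spread widely, with replicate 2 the lowest. GENCODE v29 (GRCh38) annotates CBSL as a near-identical copy of CBS. Whether hg19, the build behind the counts, holds that copy was not checked. The log2 fold change of CBS with siLRWD1-6 was 0.56 (SE 0.12, adjusted p = 0.012), 0.41 without scrambled replicate 2 and 0.54 without siLRWD1-6 replicate 1, where the call was just lost (adjusted p = 0.051). Over all 18 alternatives the adjusted p ran from 1.4e-05 to 0.051. Between the siRNAs it was 0.58 (SE 0.12, adjusted p = 0.0035). With siLRWD1-5 against scrambled CBS was at -0.02 (SE 0.12, adjusted p = 0.90), and it was called lower, at -0.18, without scrambled replicate 2 (adjusted p = 0.022).

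CTH, which splits cystathionine to cysteine, had 25.4, 24.6 and 24.9 CPM with siLRWD1-6, 13.5, 11.7 and 11.9 CPM with siLRWD1-5 and 15.5, 13.0 and 15.05 CPM in scrambled libraries. The siLRWD1-6 libraries again stood apart, and the other groups overlapped. Its log2 fold change was 0.78 with siLRWD1-6 (SE 0.10, adjusted p = 0.00036) and 1.01 between the siRNAs (SE 0.10, adjusted p = 1.3e-05), a 2.01-fold difference. With siLRWD1-5 it was -0.23 and short of the threshold (SE 0.10, adjusted p = 0.098), and without scrambled replicate 2 it was -0.30 and past it (adjusted p = 0.026).

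GLUL, glutamine synthetase, was the only enzyme of the 10 that was called lower when all libraries were used. It had 140.1, 146 and 131 CPM with siLRWD1-6, 174, 172 and 166 CPM with siLRWD1-5 and 155, 165 and 161 CPM in scrambled libraries. All siLRWD1-6 libraries were below all others. The log2 fold change with siLRWD1-6 was -0.21 (SE 0.06, adjusted p = 0.034), and the call was lost under 8 of 18 alternatives with adjusted p from 0.021 to 0.17. Leaving out scrambled replicate 3, siLRWD1-5 replicate 1 or 2, or any siLRWD1-6 library ended it, with values of -0.15 to -0.24. Between the siRNAs GLUL was at -0.30 (SE 0.06, adjusted p = 0.0019). With siLRWD1-5 against scrambled it was 0.09 (SE 0.06, adjusted p = 0.25), with every siLRWD1-5 library above every scrambled library by a small margin.

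Counting libraries that did not overlap, 9 of the 10 enzymes separated siLRWD1-6 from scrambled, where 33.7% of all genes did so in either direction. For siLRWD1-5 against scrambled it was 6 of 10 against 47.8% of all genes, and for siLRWD1-6 against siLRWD1-5 it was 8 of 10 against 61%. In the labels every group has a series 1, 2 and 3, and differences were also taken between libraries of the same number. With siLRWD1-6, ASNS was higher by 1.48, 1.57 and 1.12 on the log2 scale in series 1, 2 and 3, PCK2 by 2.11, 2.94 and 1.85, and CBS by 0.46, 0.91 and 0.36. The differences of PYCR1 were close to each other in every series, at 0.78, 0.81 and 0.84 with siLRWD1-6 and 0.86, 0.85 and 0.82 with siLRWD1-5. With siLRWD1-5, ASNS was higher by 0.43, 0.39 and 0.01 in series 1, 2 and 3. The summed CPM of the 10 enzymes was 1362 to 1407 with siLRWD1-6, 1150.0 to 1192 with siLRWD1-5 and 966 to 1025 in scrambled libraries.

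**Figure D3:**
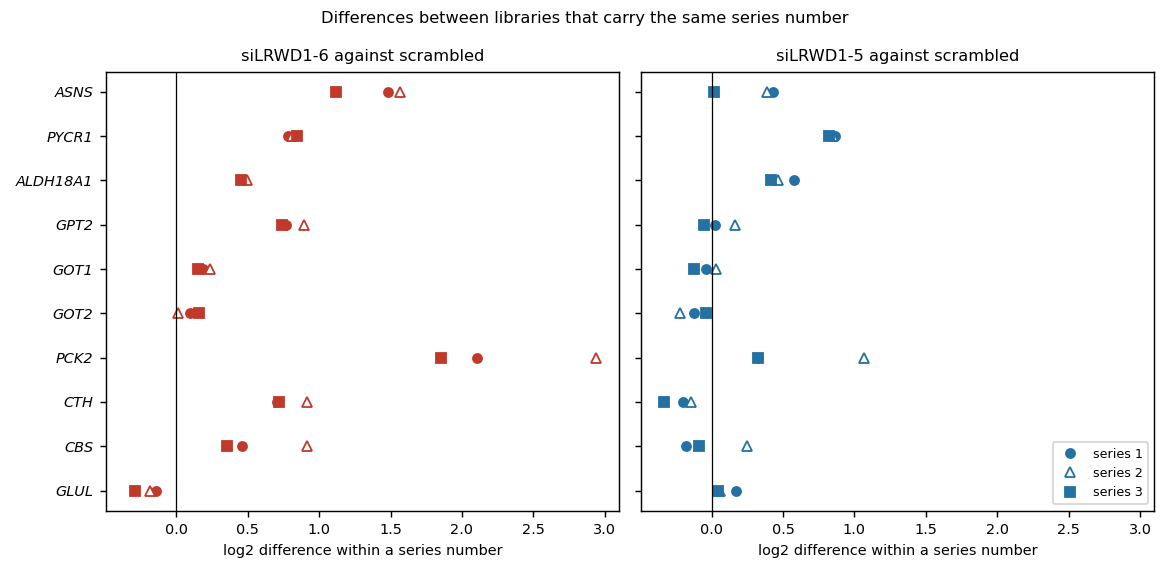
Log2 difference in CPM (horizontal axis) between libraries of the same series number, for siLRWD1-6 against scrambled (left) and siLRWD1-5 against scrambled (right), with circle, open triangle and square for series 1, 2 and 3. PCK2 and CBS are farthest to the right in series 2 in both panels, where the scrambled library had its low values.

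To set the genes side by side, CPM was divided by the median length in kilobases of their protein-coding transcripts in GENCODE v29. Per length, PYCR1 was highest in all 3 groups, at 243 ± 6.70 CPM per kb with siLRWD1-6, 249 ± 14.1 with siLRWD1-5 and 138.5 ± 6.19 in scrambled libraries (SD, n = 3 each). In scrambled libraries CBS followed with 105 ± 20.8, GOT2 with 95.2 ± 6.59, ALDH18A1 with 48.8 ± 1.10, GLUL with 36.8 ± 1.20 and ASNS with 34.1 ± 2.65 CPM per kb. GOT1 had 24.3 ± 1.05, GPT2 12.3 ± 0.743, CTH 8.04 ± 0.757 and PCK2 3.21 ± 1.13. CBS and GOT2, and GLUL and ASNS, overlapped in their scrambled libraries and cannot be ordered. In siLRWD1-6 libraries ASNS reached 89.6 ± 8.40 CPM per kb, above ALDH18A1 at 67.7 ± 1.44 and GLUL at 31.9 ± 1.64. The order depends on the length used. With the longest transcript of each gene, PYCR1 had 63.1 ± 2.82 CPM per kb in scrambled libraries, below GOT2 at 78.8 ± 5.46 and within the spread of CBS at 64.4 ± 12.7, and in siLRWD1-6 libraries ASNS had 60.4, below ALDH18A1 at 67.5.

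Other enzymes of the same pathways were taken from 6 lists with 65 genes in the table, of which 52 were expressed enough to be tested. With siLRWD1-6, 4 of the 52 were higher and 4 lower, with a median log2 fold change of -0.06. With siLRWD1-5, 5 were higher and 13 lower, at a median of -0.15. Between the siRNAs, 16 were higher and 9 lower with siLRWD1-6, at a median of 0.07. The siLRWD1-5 count of higher genes includes MAT1A, and the lower count between the siRNAs includes MAT1A and DDO. Both genes passed the filter on low counts through the siLRWD1-5 group, so these calls carry no weight. Of all genes tested, 8.81% were higher and 7.78% lower with siLRWD1-6, 18.5% higher and 20.3% lower with siLRWD1-5, and 22.4% higher and 20.9% lower between the siRNAs. Over both directions together, the related enzymes were called about as often as all genes. By direction, a smaller share of them was higher and a larger share lower with siLRWD1-5, and a larger share was higher between the siRNAs. The shares of all genes also stand behind the counts of the single lists. Changes of single genes are given on the log2 scale. Without scrambled replicate 2 the counts of related enzymes were 7 higher and 11 lower with siLRWD1-6, and 6 higher and 22 lower with siLRWD1-5. In that fit 28.5% and 49% of all genes were called. With siLRWD1-5, 11.5% of the 52 were higher and 42.3% lower, against 24% and 25% of all genes. With siLRWD1-6, 13.5% were higher and 21.2% lower, against 15.3% and 13.3%. The 6 higher with siLRWD1-5 again include MAT1A, and DDO as well. Without siLRWD1-5 replicate 1 the siLRWD1-5 counts were 3 higher and 8 lower. Leaving out siLRWD1-6 replicate 1, 2 or 3, or scrambled replicate 1, left 3 higher and 1, 0, 1 or 2 lower with siLRWD1-6. Calls over all genes also fell when 1 library was left out. They went down to 1248 with siLRWD1-6, in place of 2265, and to 4189 with siLRWD1-5, in place of 5292.

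Of 5 tested genes of proline and ornithine metabolism, 1 was higher with siLRWD1-6, where 8.81% of all genes were, and 3 were higher with siLRWD1-5, where 18.5% were. OAT, ornithine aminotransferase, had mean levels of 102, 106 and 84.3 CPM with siLRWD1-6, siLRWD1-5 and scrambled siRNA, and was higher by 0.28 with siLRWD1-6 (adjusted p = 0.046) and by 0.33 with siLRWD1-5 (adjusted p = 0.011). ALDH4A1, which degrades proline-derived pyrroline-5-carboxylate to glutamate, rose by 0.42 with siLRWD1-5 (adjusted p = 0.00074). PYCRL, a cytosolic reductase related to PYCR1, rose by 0.37 (adjusted p = 0.013). Both were lower with siLRWD1-6 than with siLRWD1-5, by -0.55 for ALDH4A1 and -0.54 for PYCRL. PRODH, proline dehydrogenase, was at only 0.648 to 5.18 CPM in scrambled libraries and was called in no comparison with all libraries. Without scrambled replicate 2, its lowest scrambled library, it was called lower with both siRNAs. The values were -1.04 with siLRWD1-6 (adjusted p = 0.012) and -1.05 with siLRWD1-5 (adjusted p = 0.0054).

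Among 9 tested aminotransferases and related enzymes, 3 rose with siLRWD1-6 and 0 fell, where 8.81% of all genes rose and 7.78% fell. With siLRWD1-5, 0 rose and 3 fell, where 18.5% of all genes rose and 20.3% fell. Without scrambled replicate 2 the counts were 4 higher and 3 lower with siLRWD1-6, and 0 higher and 6 lower with siLRWD1-5. In that fit 15.3% of all genes were higher and 13.3% lower with siLRWD1-6, and 24% higher and 25% lower with siLRWD1-5. PSAT1, the aminotransferase of serine synthesis, rose by 1.13 with siLRWD1-6 (SE 0.14, adjusted p = 0.00078), to 195 ± 19.2 CPM against 89.3 ± 18.5 CPM in scrambled libraries (SD, n = 3 each). GFPT1, which takes amide nitrogen from glutamine for hexosamine synthesis, rose by 0.90 (SE 0.07, adjusted p = 1.3e-05), and BCAT1, the cytosolic branched-chain aminotransferase, rose by 0.51 (SE 0.05, adjusted p = 0.00012). With siLRWD1-5, CCBL1 fell by 0.81 (adjusted p = 0.00015), the mitochondrial BCAT2 fell by 0.64 (adjusted p = 1e-04) and GFPT1 fell by 0.21 (adjusted p = 0.036). Between the siRNAs, 7 of the 9 were higher and 1, AADAT, was lower with siLRWD1-6, where 22.4% of all genes were higher and 20.9% lower.

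Asparagine and aspartate metabolism had 6 tested genes. The asparaginase gene ASRGL1 was at a low level and fell by 0.78 with siLRWD1-6 (adjusted p = 0.016) but rose by 0.48 with siLRWD1-5 (adjusted p = 0.041, or 0.063 without scrambled replicate 2), at 1.98 ± 0.07, 4.80 ± 0.63 and 3.40 ± 0.36 CPM with siLRWD1-6, siLRWD1-5 and scrambled siRNA (SD, n = 3 each). NIT2 fell by 0.43 with siLRWD1-5 (adjusted p = 0.0015). Glutamine and glutamate metabolism had 11 tested genes, of which GLUD1, glutamate dehydrogenase, fell by 0.27 with siLRWD1-6 (adjusted p = 0.042). With siLRWD1-5, GMPS fell by 0.41 (adjusted p = 0.00093) and CAD fell by 0.22 (adjusted p = 0.041). GAD1 fell by 0.85 (adjusted p = 0.021), or by 0.53 without scrambled replicate 2 (adjusted p = 0.041). In the fit without that library, 1 of the 11 was higher and 3 were lower with siLRWD1-6, against 15.3% and 13.3% of all genes. The higher gene was GCLM, at 0.69 (adjusted p = 2e-06), against 0.35 (adjusted p = 0.28) with all libraries. With siLRWD1-5, 0 were higher and 4 lower in that fit, against 24% and 25% of all genes.

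Of 15 tested genes of methionine and sulfur metabolism, 0 were higher and 1, AHCYL2 (-0.37, adjusted p = 0.015), was lower with siLRWD1-6. In that comparison 8.81% of all genes were higher and 7.78% lower. With siLRWD1-5, AHCYL1 fell by 0.38 (adjusted p = 0.00015), CSAD fell by 0.32 (adjusted p = 0.025) and MAT2A, the methionine adenosyltransferase of most tissues, fell by 0.20 (adjusted p = 0.018). MAT1A had 31, 19 and 17 counts with siLRWD1-5, against 5, 1 and 1 counts in scrambled libraries. It passed the filter on low counts through the siLRWD1-5 group, so its call carries no weight and no fold is given. Without scrambled replicate 2 the list had 1 higher, again MAT1A, and 6 lower with siLRWD1-5, against 24% and 25% of all genes. With siLRWD1-6 that fit gave 0 higher and 2 lower, against 15.3% and 13.3% of all genes. Among 6 tested genes of oxaloacetate and pyruvate metabolism, malic enzyme ME1 fell by 0.98 with siLRWD1-5 (SE 0.06, adjusted p = 5.3e-07), to 87.0 ± 4.53 CPM against 172 ± 0.576 CPM in scrambled libraries (SD, n = 3 each). The malate dehydrogenases MDH2 and MDH1 fell by 0.58 and 0.26 with siLRWD1-5 (adjusted p = 1.3e-05 and 0.011). With siLRWD1-6, CS, citrate synthase, fell by 0.22 (adjusted p = 0.022). It was the only gene of the 6 that was called, where 16.6% of all genes were.

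**Figure D4:**
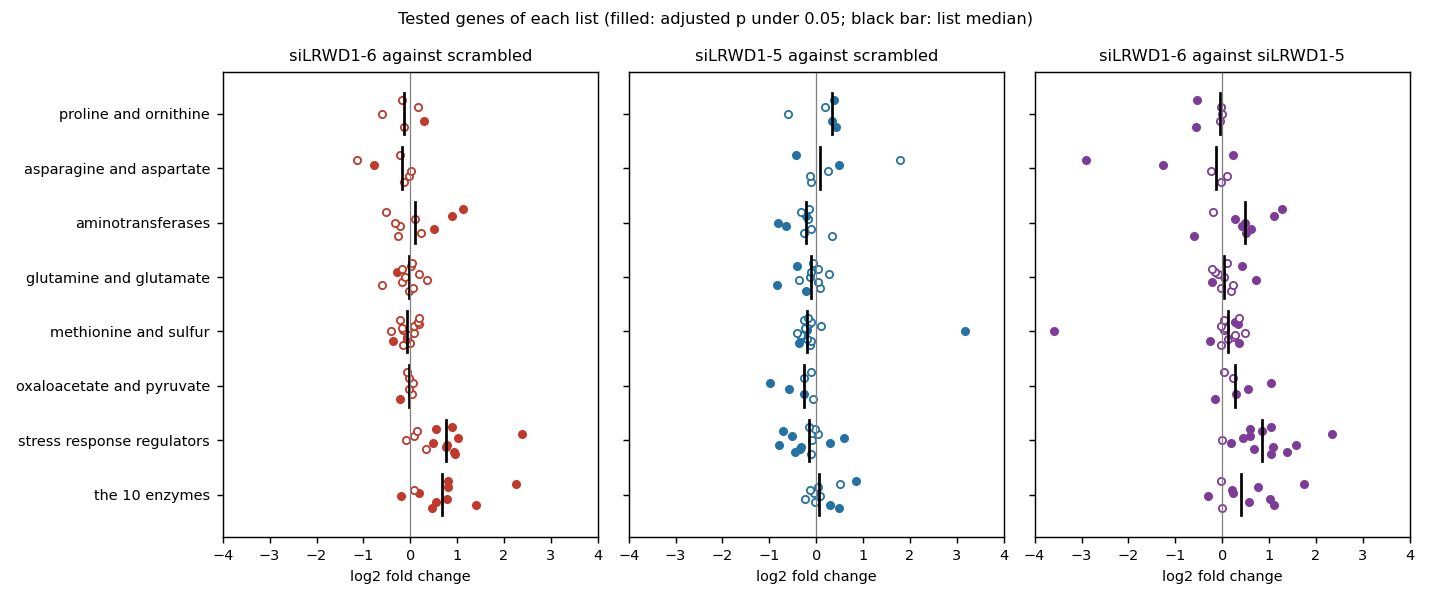
Log2 fold changes (horizontal axes) of the tested genes in the 6 lists of related enzymes, the stress response regulators and the 10 enzymes, for siLRWD1-6 against scrambled (left), siLRWD1-5 against scrambled (middle) and siLRWD1-6 against siLRWD1-5 (right), with filled points for adjusted p under 0.05 and black bars for list medians. In the left panel the medians of the 10 enzymes and of the regulators lie at 0.67 and 0.76, and those of the lists of related enzymes lie between -0.17 and 0.10.

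Of 13 genes encoding ATF4, its partners and targets and the kinases and phosphatase subunits that act upstream of it, 9 were higher and 0 lower with siLRWD1-6, where 16.6% of all genes were called, and 2 were higher and 6 lower with siLRWD1-5, where 38.8% were. Without scrambled replicate 2 the counts were 11 higher and 0 lower with siLRWD1-6, and 2 higher and 5 lower with siLRWD1-5. The shares of all genes in that fit were 15.3% higher and 13.3% lower with siLRWD1-6, and 24% and 25% with siLRWD1-5. ATF4 mRNA was at 416 to 478 CPM with siLRWD1-6, 162 to 178 CPM with siLRWD1-5 and 218 to 247 CPM in scrambled libraries, which is 0.93 higher with siLRWD1-6 (adjusted p = 1.3e-05) and, at -0.45, lower with siLRWD1-5 (adjusted p = 0.00056) on the log2 scale. ATF4 mRNA thus moved in opposite directions with the siRNAs. The 2 regulators called higher with siLRWD1-5, EIF2AK3 and EIF2AK1, were also higher with siLRWD1-6. Their log2 fold changes were 1.02 and 0.48 with siLRWD1-6, and 0.58 and 0.30 with siLRWD1-5. Among the 6 regulators called lower with siLRWD1-5 were the kinase gene EIF2AK4 (-0.51, adjusted p = 5.5e-05) and DDIT3 (-0.80, adjusted p = 3e-04). With siLRWD1-6, EIF2AK4 was at 0.07 and not called (adjusted p = 0.45), and DDIT3 was higher by 0.78 (adjusted p = 0.00082). A link between the regulators and the enzymes was not tested.

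The genes whose log2 CPM was most like that of ASNS over the 9 libraries were PSPH, SEC23IP, RNF145, SAR1A and EPRS, among 10888 other genes with a mean of at least 5 CPM. Their Pearson r with ASNS was 0.984 to 0.988 over points that share their libraries, which is given as a description. PSPH, the last enzyme of serine synthesis, had 41.7, 39.8 and 39.5 CPM with siLRWD1-6, 25.5, 24.1 and 23.4 CPM with siLRWD1-5 and 24.1, 21.7 and 23.4 CPM in scrambled libraries. EPRS, the glutamyl-prolyl-tRNA synthetase, had 507, 501 and 479 CPM with siLRWD1-6, 369, 369 and 337 CPM with siLRWD1-5 and 345, 343 and 370.2 CPM in scrambled libraries. SEC23IP and RNF145 had log2 fold changes of 0.66 and 0.99 with siLRWD1-6, and 0.14 and 0.27 with siLRWD1-5. SAR1A encodes a GTPase of vesicle budding from the endoplasmic reticulum, and its log2 fold changes were 0.51 with siLRWD1-6 and 0.04 with siLRWD1-5.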

How the data were processed

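RNA was sequenced from 9 A673 libraries, prepared from total RNA with a TruSeq kit per the labels' protocols. The table the authors deposited holds unnormalized counts of reads for each gene symbol and library. The submitters' processing notes name TopHat2 2.0.10, HTSeq 0.5.4p3, bcl2fastq 1.8.4 and the hg19 build. Annotation, counting mode and use of strand: not given in the sources used here. Copies and overlapping genes were looked up in GENCODE v29 (GRCh38), a different build from that of the counts. By that annotation ASNS, GOT2, GLUL and CBS have copies, and ASNS, PYCR1, GOT1 and GOT2 have overlapping genes. Where these are also in hg19 they can share reads, so the levels of these enzymes are less certain.

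Genes were kept by filterByExpr, libraries were scaled by TMM, and edgeR 4.0.16 in R 4.3.3 fitted all 9 libraries by group with its robust quasi-likelihood test. Adjusted p-values are Benjamini-Hochberg values over 13648 genes. Within-series differences used log2 CPM with a prior count of 2, and within-library ratios used scaled CPM without a prior count. P-values set a difference against 1 estimate of spread per gene, which is shared by the 3 groups of 3 libraries and moderated across genes. The fit was tested on simulated data. SE and 95% intervals come from the F statistic. CTPS1 was matched by its older symbol. Alternatives included DESeq2 1.42.0 and limma 3.58.1 (voom). All 10 enzymes, up to 4 called genes per list and comparison, and the 5 genes most like ASNS are named. The enzymes and lists were chosen with earlier results of these data known.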

Additional observations from a re-analysis of the deposited data

How the results depend on the processing

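Of 540 values, the log2 fold changes of the 10 enzymes in 3 comparisons under 18 alternatives, 494 kept their direction and side of the threshold, 33 lost the call, 4 gained it and 9 changed sign. The sign changes concern values near 0. With siLRWD1-5 against scrambled they were GOT1 (0.0052) and CBS (0.024) with no scaling beyond the library total, GPT2 (-0.0015) with only the libraries numbered 1 and 3, and CBS without scrambled replicate 1 (0.046), scrambled replicate 3 (0.070) or siLRWD1-5 replicate 2 (0.030), with a range of -0.18 to 0.070 over the libraries left out. Between the siRNAs they were PYCR1 (0.013) and ALDH18A1 (0.014) without siLRWD1-5 replicate 1, and ALDH18A1 (0.0045) without siLRWD1-6 replicate 1. Leaving out each library gave -0.064 to 0.013 for PYCR1 and -0.034 to 0.014 for ALDH18A1. The cause was not tested. The calls of PYCR1, ALDH18A1, ASNS, GPT2, PCK2 and CTH with siLRWD1-6 against scrambled kept their side of the threshold under all 18 alternatives.

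Leaving out each library in turn gave 6 to 10 called enzymes with siLRWD1-6, 2 to 4 with siLRWD1-5 and 7 to 8 between the siRNAs. It gave 3 to 18 called related enzymes with siLRWD1-6, 11 to 28 with siLRWD1-5 and 19 to 30 between the siRNAs. Over all genes it gave 1248 to 3953 calls with siLRWD1-6 in place of 2265. The highest count came without scrambled replicate 2 and the lowest without siLRWD1-6 replicate 1, and 1369 were called without siLRWD1-6 replicate 2. With siLRWD1-5 the calls over all genes were 4189 to 6790 in place of 5292. Between the siRNAs they were 4685 to 7551 in place of 5919. Fitting only the groups compared gave 5 related enzymes with siLRWD1-6, and fitting only the libraries numbered 1 and 3 gave 16 related enzymes and 3579 genes. Some of these fits have fewer libraries. With no scaling beyond the library total, 2478 genes were higher and 3609 lower between the siRNAs, in place of 3063 and 2856. For siLRWD1-5 against scrambled that scaling gave 3101 higher and 2320 lower, in place of 2527 and 2765.

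The labels do not say that a number marks a shared experiment across groups. Same-numbered libraries deviated together with r over 0.1 in 7 of 9 pairs, and 8 of 9 libraries correlated best with their own number, a hint from the data and not from the design. With the replicate number as a block, 9, 4 and 8 enzymes were called with siLRWD1-6, with siLRWD1-5 and between the siRNAs, and the added call was PCK2 with siLRWD1-5 (0.52, adjusted p = 0.044). The block gave 2815, 5925 and 6492 calls over all genes and 10, 22 and 27 among related enzymes. Depth limits PCK2 most, with 43 counts in scrambled replicate 2.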
